A study of Rattus norvegicus with 46 samples.

Results

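Cdh2, Itm2a, Mcam, Rgs16, Hnf4a, Heyl, Gdf10, Mier2, Kcna6 and Anxa8 are 10 of the 30045 genes counted by RNA sequencing in the lungs and the blood of old male rats of the Fischer 344 strain. They are genes seldom listed among markers of blood cells, and they were chosen by their lung levels, because most of them were higher in both air libraries of 6 months than in any other lung. Each has 1 row in each of the 4 deposited tables. The lung levels that picked them are therefore given as a description, with no test, and the tests below concern lung at 1 day and blood.

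All rats were of the same strain and sex and were exposed by inhalation with the whole body in the chamber. The air groups breathed filtered air, and the silica groups breathed Min-U-Sil 5, a fine crystalline silica dust, with 5 daily exposures of 6 hours at 15 mg/m3. Tissue was taken 1 day or 6 months after exposure, and the title of the series calls the rats aged without giving an age in the sources used here. The 46 samples gave 41 libraries, because 5 pairs of lung samples differed by little more than sampling noise and were averaged. In lung these are 4 air and 6 silica libraries at 1 day, and 2 air and 5 silica libraries at 6 months. In blood there are 6 libraries in each of the 4 groups. The labels do not say whether samples with the same number came from the same animal, nor whether each sample of a group is a separate animal, so the spread behind the p-values may be technical.

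The averaged pairs are air 02 with 07 and 04 with 08 at 1 day, air 19 with 24 and 20 with 25 at 6 months, and silica 30 with 31 at 6 months. In these pairs 9.58% to 11.5% of genes differed by a chi-square test of the counts, where sampling alone gives 5%. The share was 22.8% to 74.2% in the other 46 lung pairs and 27.3% to 93.4% in the 60 blood pairs. Lung libraries held 13.4 M to 24.6 M counts and blood libraries 10.6 M to 17.5 M. CPM, counts per 1000000 of the library total, were scaled here by TMM factors, a correction for differences in composition, over all libraries of a tissue. The factors lay between 0.923 and 1.03 for lungs and between 0.475 and 1.69 for bloods, the highest being that of blood air library 25 of 6 months. On this scale 3 counts, the floor used where a count is 0, are worth 0.124 to 0.2204 CPM in a lung and 0.1098 to 0.442 CPM in a blood library. Summed endothelial markers were at 2390 to 4821 CPM in lung and at 51.7 to 158 CPM in blood. Summed erythroid markers were at 1370 to 4357 CPM in lung and at 17897 to 119934 CPM in blood. The markers of each labelled tissue were thus present.

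Granular lymphocytes are natural killer cells and cytotoxic T cells, which carry granules with the pore-forming protein perforin (Prf1) and granzymes, and the granule membrane protein NKG7 (Nkg7). Old rats of the Fischer 344 strain are known for spontaneous leukaemia of such cells. Most of the 10 genes are known from other settings. Cdh2 encodes N-cadherin, an adhesion molecule of nerve, heart and mesenchymal cells, and Mcam encodes CD146, an adhesion molecule of endothelium and pericytes that is also found on some lymphocytes. Itm2a encodes a membrane protein of cartilage, muscle and T cells. Rgs16 encodes a GTPase activator that shortens signals of G protein-coupled receptors, Gdf10 a secreted ligand of the TGF-beta superfamily, and Kcna6 a voltage-gated potassium channel subunit. Hnf4a encodes a nuclear receptor of liver and gut, Heyl a repressor that acts downstream of Notch, and Mier2 a protein of histone deacetylase complexes. Anxa8 encodes an annexin, a calcium-dependent membrane-binding protein.

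RefSeq promoter windows (GRCr8, 250 bases before to 50 after a gene's start) were matched by symbol for 8 of the 10 genes, with 9 windows since Hnf4a has 2. Cdh2 and Mcam were not matched. The windows below are shown because they carry the only motif matches found (Kcna6, Anxa8), have the highest share of G and C (Gdf10), or belong to 2 starts that a count per gene cannot tell apart (Hnf4a). Capitals mark the RUNX motif.
Kcna6, chr4:161262303-161262602, minus strand: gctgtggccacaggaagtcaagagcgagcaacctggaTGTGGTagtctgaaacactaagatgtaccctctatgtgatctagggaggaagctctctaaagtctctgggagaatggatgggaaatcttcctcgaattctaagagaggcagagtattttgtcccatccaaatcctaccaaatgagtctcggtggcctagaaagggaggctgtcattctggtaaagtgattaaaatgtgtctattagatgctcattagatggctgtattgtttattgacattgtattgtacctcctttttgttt
Anxa8, chr16:9403137-9403436, plus strand: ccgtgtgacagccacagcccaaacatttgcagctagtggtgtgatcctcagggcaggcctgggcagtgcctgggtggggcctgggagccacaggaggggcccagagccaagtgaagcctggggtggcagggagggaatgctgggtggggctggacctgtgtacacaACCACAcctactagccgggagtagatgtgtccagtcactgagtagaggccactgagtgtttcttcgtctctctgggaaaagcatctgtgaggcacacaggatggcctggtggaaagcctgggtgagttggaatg
Gdf10, chr16:9243262-9243561, plus strand: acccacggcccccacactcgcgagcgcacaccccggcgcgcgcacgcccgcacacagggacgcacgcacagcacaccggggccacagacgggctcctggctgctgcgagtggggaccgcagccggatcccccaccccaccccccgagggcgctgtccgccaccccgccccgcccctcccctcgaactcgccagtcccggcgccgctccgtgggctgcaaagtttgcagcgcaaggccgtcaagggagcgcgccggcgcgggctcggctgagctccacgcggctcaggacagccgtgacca
Hnf4a, chr3:172605970-172606269, plus strand: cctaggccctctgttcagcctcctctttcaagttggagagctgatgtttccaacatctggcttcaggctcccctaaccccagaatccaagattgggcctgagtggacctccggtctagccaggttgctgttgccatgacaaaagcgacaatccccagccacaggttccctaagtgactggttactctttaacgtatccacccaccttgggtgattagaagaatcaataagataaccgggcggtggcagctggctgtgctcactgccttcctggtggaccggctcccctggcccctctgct
Hnf4a, chr3:172641586-172641885, plus strand: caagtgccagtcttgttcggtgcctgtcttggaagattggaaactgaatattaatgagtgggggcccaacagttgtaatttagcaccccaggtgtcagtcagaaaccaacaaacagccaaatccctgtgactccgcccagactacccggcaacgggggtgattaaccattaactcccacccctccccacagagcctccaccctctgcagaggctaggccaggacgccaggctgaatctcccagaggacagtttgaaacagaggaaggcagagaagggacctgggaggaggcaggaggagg
Motifs of 5 factor families were searched on both strands. The RUNX motif TGTGGT stood in the Kcna6 window on its own strand and in the Anxa8 window on the opposite strand, and 17.3% of 33469 rat promoter windows hold it. The T-box motif AGGTGTGA (1.103% of windows), the HEY and HES motif CACGTG (6.42%), the HNF4 motif CAAAGTCCA (0.391%) and the ETS motif CCGGAAGT (3.81%) had no match in the 9 windows. Base composition differed between the windows. Gdf10 had 76.0% G and C with 39 CpG sites, and Kcna6 had 43.0% with 3.

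In lung, 9 of the 10 genes were higher in both air libraries of 6 months than in every other lung library. The exception was Anxa8. Over the 14987 genes with a mean of at least 1 CPM, 22.5% had this pattern, so the count only restates how the genes were picked. The members nearest the limit were Hnf4a, whose lower late air library stood 1.62 times above the highest other lung, and Mcam at 1.66 times, while Anxa8 stood at 0.802 times. In the plot of lung levels, the late air libraries stand alone in 9 panels and inside the range of the others in the Anxa8 panel.

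**Figure D1:**
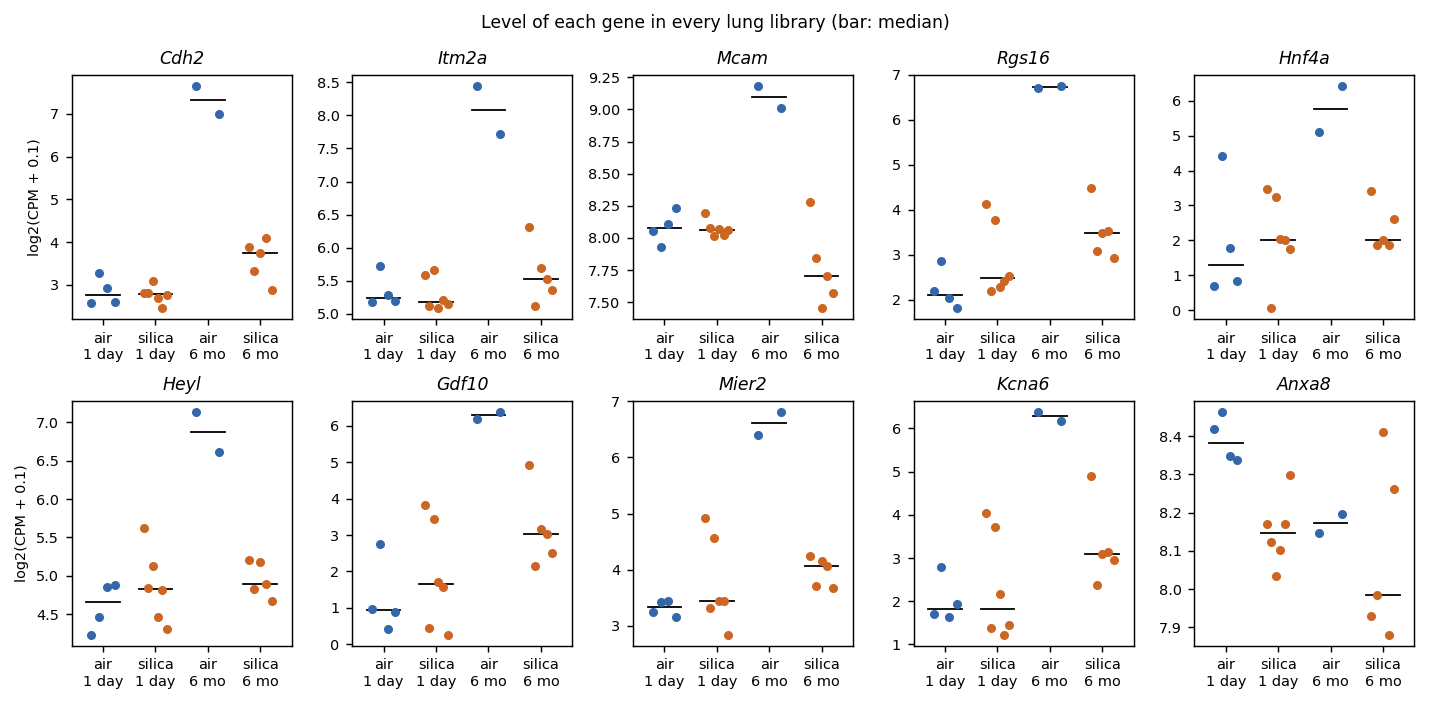
Level of each of the 10 genes in the 17 lung libraries, as log2(CPM + 0.1) on the vertical axis, which differs between panels, by exposure and time on the horizontal axis. Each point is a library, blue for air and orange for silica, and the bar is the group median. The air libraries of 6 months (201 and 126 CPM for Cdh2) lie above all others except for Anxa8.

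Cdh2 was at 201 CPM in air library 19-24 and at 126 CPM in air library 20-25. The 5 silica libraries of 6 months were at 14.7, 9.95, 13.2, 17.1 and 7.24 CPM. At 1 day the air libraries were at 5.85, 9.54, 7.57 and 6.01 CPM, and the silica libraries ran from 5.38 to 8.42 CPM with a median of 6.82 CPM. The late air lungs thus stood at least 7.39 times above the highest other lung, the widest gap among the 10 genes. Late silica lungs overlapped the 1 day lungs at the low end only.

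Mcam, the other adhesion gene, differed in a different way, because it had a high level in all lungs. It was at 582 and 517 CPM in the late air libraries. The late silica libraries were at 311, 230.1, 175, 209 and 190.4 CPM. At 1 day the air libraries were at 266, 244, 275 and 300.5 CPM and the silica libraries at 259 to 293 CPM (median 268 CPM). The late air lungs were thus about 2-fold the median of the others (1.94 and 2.185 times), and 4 of the 5 late silica lungs were below all lungs of 1 day. Itm2a was at 349 and 209.7 CPM in the late air lungs and at 33.8 to 79.0 CPM in the other 15.

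Among the signalling genes, Rgs16 was at 104 and 108 CPM in the late air lungs. Late silica lungs were at 22.1, 8.30, 11.01, 11.4 and 7.49 CPM. At 1 day the air lungs were at 4.44, 7.09, 3.97 and 3.399 CPM and the silica lungs at 4.49 to 17.3 CPM (median 5.44 CPM). Gdf10 was at 73.6 and 83.4 CPM in the late air lungs, and the late silica lungs were at 30.1, 4.38, 8.95, 8.11 and 5.57 CPM. At 1 day Gdf10 was at 1.87, 6.71, 1.25 and 1.76 CPM in the air lungs and at 1.103 to 14.1 CPM (median 3.04 CPM) in the silica lungs. Kcna6 was at 83.2 and 72.1 CPM in the late air lungs and at 2.24 to 29.6 CPM in the others. Silica library 30-31, the highest of the late silica lungs for all 3 signalling genes, stood apart from the next for Gdf10 (30.1 against 8.95 CPM) and Kcna6 (29.6 against 8.69 CPM).

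Among the nuclear genes, Hnf4a was the most uneven. It was at 34.3 CPM in late air library 19-24 and at 86.2 CPM in 20-25, and the late silica lungs were at 10.6, 3.55, 3.93, 3.54 and 6.02 CPM. At 1 day air library 04-08 was at 21.1 CPM while the other air lungs were at 1.52, 3.31 and 1.70 CPM. The silica lungs of 1 day ran from 0.939 to 10.9 CPM with a median of 3.96 CPM. Heyl was at 141 and 97.7 CPM in the late air lungs and at 18.7 to 49.2 CPM in the others. Mier2 was at 84.5 and 112 CPM and at 7.08 to 30.2 CPM in the others. Silica libraries 10 and 12 of 1 day were the highest of their group for 7 genes, Itm2a (47.9 and 50.6 CPM), Rgs16 (17.3 and 13.6 CPM), Hnf4a (10.9 and 9.33 CPM), Gdf10 (14.1 and 10.7 CPM), Mier2 (30.2 and 23.6 CPM), Kcna6 (16.3 and 13.2 CPM) and Heyl (49.2 and 34.7 CPM).

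Anxa8 did not share the pattern. Its level was 283 and 293 CPM in the late air lungs and 236 to 353 CPM in the other 15.

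In the fit of silica against air at 6 months, the log2 fold change was -3.69 ± 0.31 (SE) for Cdh2, -2.44 ± 0.31 for Itm2a, -1.27 ± 0.21 for Mcam, -3.10 ± 0.36 for Rgs16 and -3.41 ± 0.47 for Hnf4a. It was -1.90 ± 0.19 for Heyl, -2.75 ± 0.64 for Gdf10, -2.60 ± 0.18 for Mier2, -2.68 ± 0.58 for Kcna6 and -0.03 ± 0.17 for Anxa8. Over all 16265 genes tested, 10.1% were called lower in silica. These values share the air libraries that picked the genes, and nothing is read from them. Without air library 19-24 the fold change of Cdh2 was -3.28 and that of Hnf4a -3.90, and without 20-25 that of Hnf4a was -2.60.

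Most markers of granular lymphocytes were higher in the same lungs. Of 20 such markers, 16 lay above every other lung in both late air libraries, while Ctsw, Klrb1a, Cd160 and Xcl1 did not. The sum of the 20 was 6349 and 5518 CPM against 396 to 2075 CPM in the other lungs. Prf1 was at 1442 and 869 CPM against 65.2 to 315 CPM, and Nkg7 at 468 and 497 CPM against 23.5 to 121 CPM. Silica library 30-31 was the highest of the others for both. Of 12 T cell markers, 3 lay above every other lung in both, the co-receptor gene Cd8a, Cd27 and Lck, while Cd3e, a chain of the T cell receptor complex, was lower than in any other lung (3.33 and 5.31 against 6.46 to 26.1 CPM). Macrophage and monocyte markers summed to 14106 and 15587 CPM against 20618 to 56549 CPM. In bulk RNA, more cells of a type and more RNA per cell cannot be told apart, and the part of these cells in the levels of the 10 genes was not tested.

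Markers of tissues in which the 10 genes are better known were not higher together. In the late air lungs, 0 of 11 pericyte and smooth muscle markers, 0 of 10 hepatocyte markers, 0 of 8 cardiac markers and 0 of 8 neuronal markers lay above every other lung in both libraries. The pericyte sum was 524 and 615 CPM against 583 to 914 CPM, and the hepatocyte sum was 11.3 and 8.86 CPM against 9.08 to 21.9 CPM. Of 9 endothelial markers 2 were above (Emcn and Pecam1), with a sum of 3530 and 3384 CPM inside the range of the others. Of 6 mesothelial markers 1 was above, Calb2.

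The rule that picked the genes used lung levels and no blood value. The genes were chosen with earlier results of these data known, however, so blood is not an independent check. All 10 genes had their highest blood level in 1 library, air library 25 of 6 months. Over the 11278 genes with a mean of at least 1 CPM, 28.0% were highest there. All 10 also exceeded the next blood library more than 4-fold, which 0.559% of these genes did (63 genes); this limit was chosen after the values were seen. By this ratio the 10 genes ranked from 2 to 41 among the 11278, while Nkg7 ranked 87 and Prf1 173. The plot of ratios shows this shift, and it includes Anxa8, which was not high in the late air lungs. The mean behind the limit of 1 CPM includes library 25, so genes high there alone can enter. Cdh2 did so, with a median of 0 CPM over the other bloods. The ranks and shares are therefore a description.

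**Figure D2:**
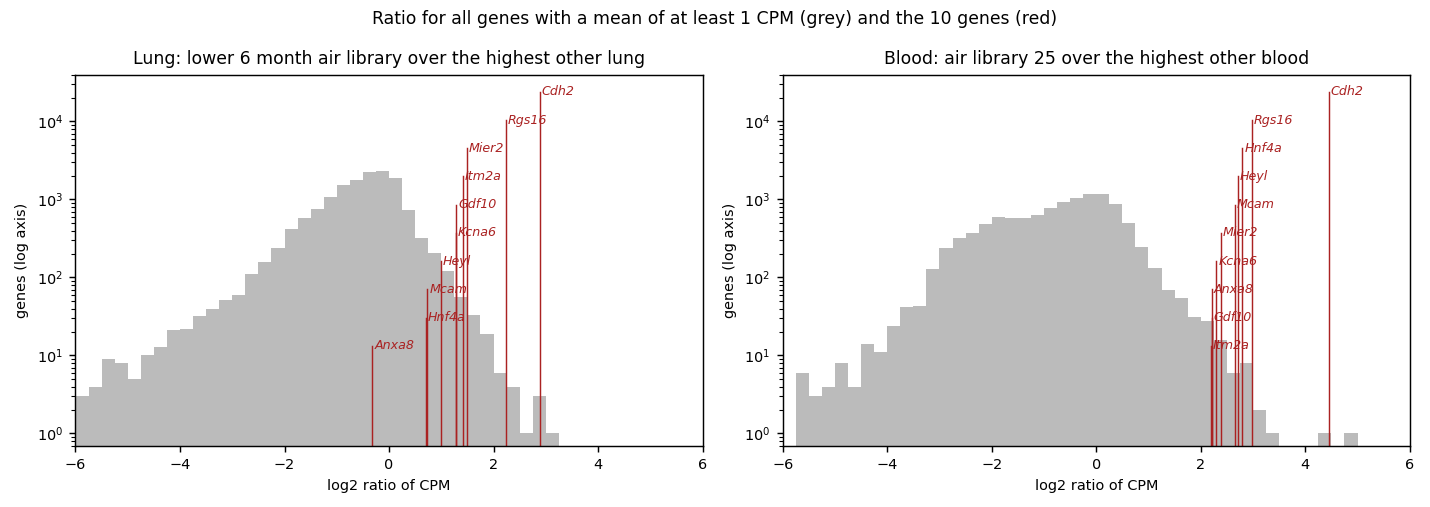
Number of genes (log axis) by log2 ratio of CPM, in lung for the lower late air library over the highest other lung, and in blood for air library 25 of 6 months over the highest other blood library. Grey bars are all genes with a mean of at least 1 CPM (14987 in lung, 11278 in blood), and red lines are the 10 genes, their height chosen only to separate the names. In blood all 10 lie at a log2 ratio of 2.20 or more. The mean includes the libraries in the numerator of each ratio.

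Cdh2 was at 59.7 CPM in blood air library 25. It was at 2.74 CPM in air library 21, at 0.545 CPM in 20, at 0.0731 CPM in 27 and at 0 in 19 and 23. The silica bloods of 6 months ran from 0 to 1.83 CPM (median 0.259 CPM). All 6 air bloods of 1 day had a count of 0, which allows up to 0.152 to 0.227 CPM by the 3 count floor, and the silica bloods of 1 day ran from 0 to 0.280 CPM. Cdh2 was thus at or under the floor in most bloods and 21.8 times the next in library 25.

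Mcam was at 117 CPM in library 25 and at 3.98 to 18.6 CPM in the other late air bloods. The late silica bloods ran from 1.35 to 14.8 CPM with a median of 11.3 CPM, and those of 1 day from 2.43 to 10.9 CPM. Itm2a was at 132 CPM in library 25, and the other 23 bloods reached at most 28.8 CPM. For both genes the next library was air 21 of 6 months.

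Rgs16 was at 58.0 CPM in library 25 against 7.40 CPM in the next, Gdf10 at 53.2 against 11.5 CPM and Kcna6 at 36.7 against 7.48 CPM. The next was again air library 21. Hnf4a was at 49.8 CPM, and the next was air library 04 of 1 day at 7.16 CPM. Heyl was at 37.7 CPM, next to 5.75 CPM in silica library 34 of 6 months. Mier2 was at 53.7 CPM and Anxa8 at 51.6 CPM, against 10.3 and 11.1 CPM in air library 21. In the plot of blood levels the other late air bloods lie among the late silica bloods, apart from library 21 for several genes.

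**Figure D3:**
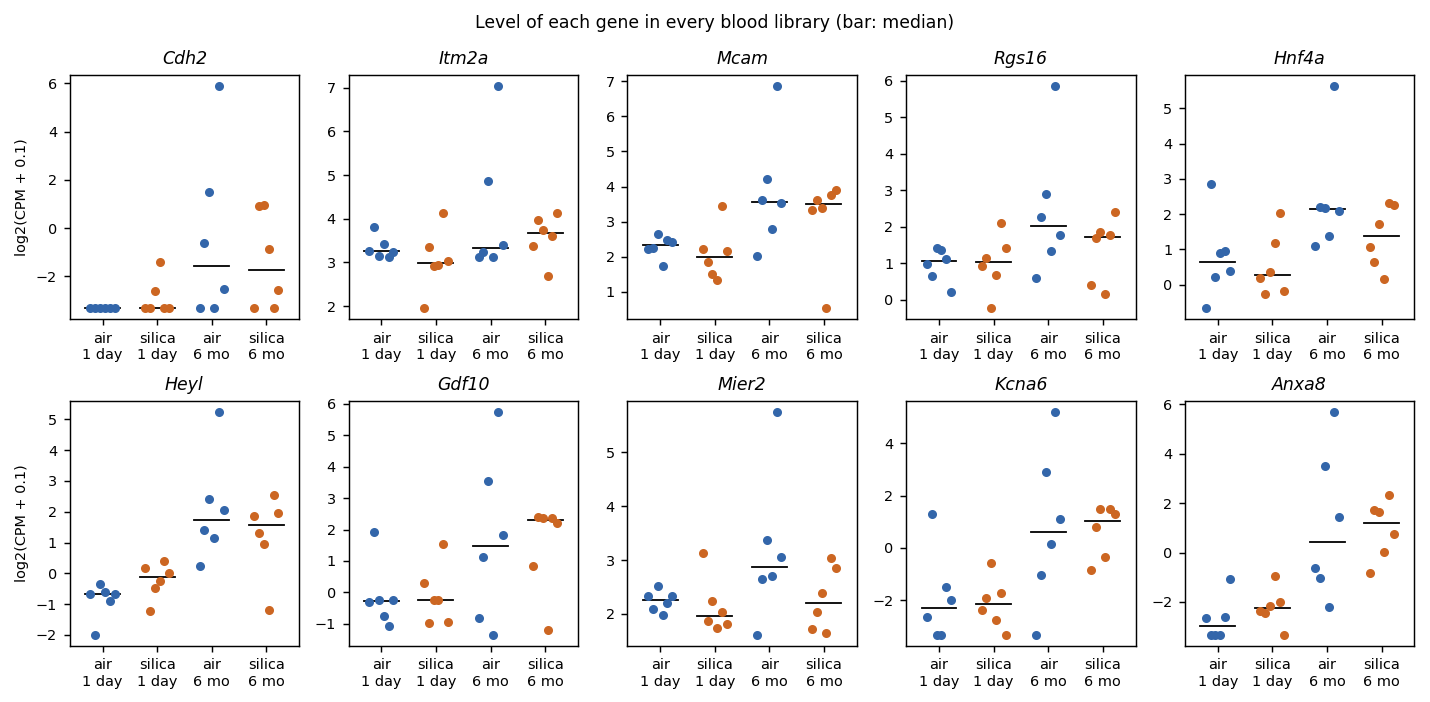
Level of each of the 10 genes in the 24 blood libraries, as log2(CPM + 0.1) on the vertical axis, which differs between panels, by exposure and time on the horizontal axis. Each point is a library, blue for air and orange for silica, and the bar is the group median; the single high point of the late air group in each panel is library 25 (59.7 CPM for Cdh2).

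The numbers of the samples did not run in parallel between tissues. Lung samples 20 and 25 differed by little more than sampling noise, whereas blood libraries 20 and 25 had 0.545 and 59.7 CPM of Cdh2, 4.67 and 58.0 CPM of Rgs16, and 4.51 and 49.8 CPM of Hnf4a. Blood library 19 also shares its number with a late air lung and had 0 CPM of Cdh2, 1.40 CPM of Rgs16 and 2.03 CPM of Hnf4a. At 1 day, lung library 04-08 was the highest air lung for Hnf4a, and blood library 04 had 7.16 CPM of it while blood library 08 had 1.83 CPM. Blood library 04 was also high for Gdf10 (3.65 CPM) and Kcna6 (2.39 CPM).

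Most granular lymphocyte markers were highest in blood library 25 as well. Of 20 markers, 16 lay above all other bloods, and the sum of the 20 was 3749 CPM against 409 to 1356 CPM. Klrb1a, Cd244 and Xcl1 lay within the range of the other bloods. Ctsw went the other way and was below them all (13.2 against 19.7 to 51.8 CPM). Prf1 was at 612 CPM against at most 231 CPM, and Nkg7 at 298 CPM against at most 83.7 CPM. Of the T cell markers 2 were above, Cd8a and Cd27, while Cd3e was the lowest (14.4 against 41.5 to 81.5 CPM). B cell markers summed to 29.1 CPM against 73.0 to 314 CPM, platelet markers to 780 CPM against 1433 to 3099 CPM, and macrophage and monocyte markers to 2100 CPM against 3889 to 7293 CPM. The part of these cells in the result was not tested.

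Several markers of other sources had no count in blood library 25, with exceptions. Most of them were also at or near 0 in the other bloods, so these zeros are not particular to library 25. Abcc9 and Kcnj8 were at 0 in all other bloods, and Cspg4, Acta2, Des and Cnn1 had a median of 0 there. The hepatocyte genes named below had medians of at most 0.227 CPM in the other bloods. Counts were 0 for the pericyte and smooth muscle genes Cspg4, Acta2, Des, Abcc9, Kcnj8 and Cnn1, and the sum of that list was 2.09 CPM, inside the range of the others, while Myh11 (0.805 CPM) was above every other blood. Counts were 0 for the hepatocyte genes Apoa1, Apoa2, Apob, Ttr, Apoc3, Fga and Serpina1, with a sum of 0.293 CPM. In the mesothelial list Msln, Upk3b, Wt1 and Upk1b had a count of 0, but Calb2 was at 21.9 CPM against at most 10.1 CPM in the other bloods, and the list's sum of 22.4 CPM was above their 0.891 to 10.7 CPM. The part of such cells in the result was not tested. Counts were also 0 for the fibroblast genes Pdgfra, Lum and Tcf21, 6 of 8 cardiac and 7 of 8 neuronal markers. Endothelial markers summed to 51.7 CPM, below the 91.7 to 158 CPM of the other bloods. Most of that endothelial sum was Vwf, at 37.0 CPM. In this library the endothelial and hepatocyte sums were thus below those of the other bloods, and the pericyte and smooth muscle sum was not.

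Counts were also set against Prf1 within each library. Per 100 Prf1 counts, blood library 25 had 9.76 of Cdh2, 9.49 of Rgs16, 8.14 of Hnf4a and 19.1 of Mcam, and it was above the other 23 bloods for 9 of the 10 genes. The exception was Mier2 at 8.78, where the highest other was at 11.5. In the late air lungs the same ratio was above the other lungs in both libraries for 0 of the 10 genes. Cdh2 was at 13.97 and 14.5 per 100 Prf1 counts in them, within the 3.09 to 15.5 of the other lungs. Itm2a, Hnf4a and Kcna6 also lay within, and Mcam, Heyl and Anxa8 lay below the other lungs. These ratios are descriptions of single libraries, since the late air lungs number 2 and blood library 25 is 1 library. In library 25 Prf1 was 2.65 times the next blood, and each of the 10 genes was at least 4.58 times the next. The count in blood thus partly restates those values. No share of all genes was computed for these ratios, so the counts are not read as a trait of the 10 genes.

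The first question with a test is whether silica changed these genes in lung at 1 day. Of the 10 genes 1 was called at an adjusted p under 0.05, Anxa8, beside 11.7% of the 15732 genes tested. Anxa8 was at 342, 353, 326 and 323 CPM in the air lungs and at 262 to 315 CPM (median 283 CPM) in the silica lungs, so that the groups did not overlap. It fell by 0.23 ± 0.05 (SE) on the log2 scale (adjusted p = 0.00758, edgeR quasi-likelihood test with Benjamini-Hochberg adjustment over all genes tested). In a fit of all 4 lung groups together its adjusted p was 0.194.

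The other 9 did not pass. Cdh2 was at -0.09 ± 0.15, Itm2a at -0.03 ± 0.16 and Mcam at 0.00 ± 0.06, differences within their errors. Rgs16 was at 0.85 ± 0.48 (edgeR adjusted p = 0.331), Gdf10 at 0.93 ± 0.88, Kcna6 at 0.73 ± 0.70, Mier2 at 0.64 ± 0.43 and Heyl at 0.30 ± 0.27. Their positive values came with silica libraries 10 and 12, which stood above the rest of the silica group. Hnf4a was at -0.35 ± 0.90, and at 1.32 ± 0.75 without air library 04-08. The plot of fold changes gives all values with their errors.

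**Figure D4:**
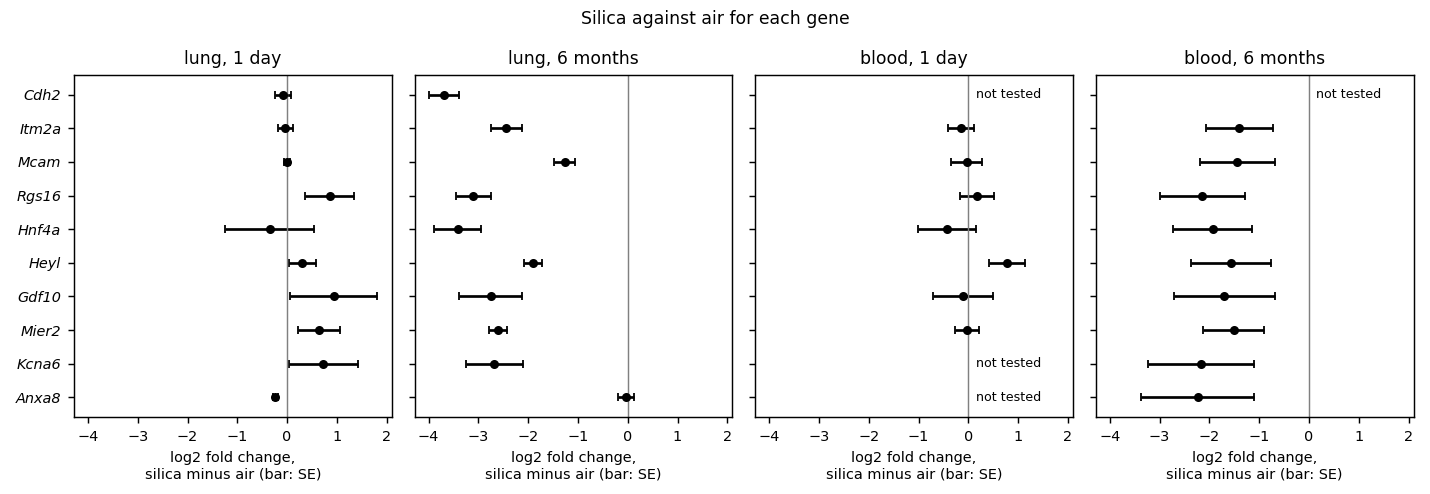
Log2 fold change of silica minus air (horizontal axis) for each of the 10 genes, in lung and blood at 1 day and 6 months. Points are edgeR estimates and bars are standard errors. In lung at 6 months, where the genes were picked, 9 lie at -1.27 or below; in blood at 6 months all 9 that were fitted lie below 0 with wide errors.

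In blood at 1 day, 7 of the 10 genes had enough counts to be tested, all but Cdh2, Kcna6 and Anxa8, and 0 passed, as 0% of 11876 genes did by edgeR (430 genes at an unadjusted p under 0.05, and 0 by DESeq2). Heyl was at 0.77 ± 0.36, with 0.152 to 0.686 CPM in air and 0.324 to 1.22 CPM in silica bloods, which overlap. The others lay between -0.42 ± 0.59 (Hnf4a) and 0.18 ± 0.34 (Rgs16). Without air library 04, Hnf4a was at 0.42 and Gdf10 at 0.78.

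In blood at 6 months, 9 genes were tested and 0 passed, as 0% of 11615 genes did by edgeR (720 at an unadjusted p under 0.05, 3 of the 10 genes among them, Rgs16, Hnf4a and Mier2, and 7 genes by DESeq2). All 9 values were below 0, with a median of -1.70 beside 0.01 over all genes tested. Anxa8 was at -2.24 ± 1.13, Kcna6 at -2.17 ± 1.07, Rgs16 at -2.14 ± 0.85 and Hnf4a at -1.94 ± 0.79, each with an edgeR adjusted p of 0.658. These values rested on air library 25. Without it they lay between -0.43 (Mier2) and 0.02 (Gdf10), Rgs16 at -0.41 and Hnf4a at -0.28.

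The silica effect in blood at 6 months minus that at 1 day was tested over all 4 blood groups. None of the 9 genes tested passed, as 0% of 12264 genes did by edgeR (335 at an unadjusted p under 0.05, 3 of the 10 genes among them, and 1 by DESeq2). The values were largest for Anxa8 (-3.26 ± 2.14), Heyl (-2.34 ± 1.02) and Rgs16 (-2.31 ± 0.99). The 1 gene called by DESeq2 was Cdh2, which edgeR's filter had left out and which had a count of 0 in all air bloods of 1 day, so its fitted size gives no fold change. Without library 25 the edgeR values were -0.57 for Rgs16 and -0.79 for Heyl, and Hnf4a, Gdf10, Kcna6, Itm2a and Mcam changed sign.

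Levels of several genes were higher in blood at 6 months than at 1 day in both exposure groups. Heyl was at 0.152 to 0.686 CPM in air bloods of 1 day and at 1.09 to 37.7 CPM in those of 6 months, with no overlap. In the silica bloods it was at 0.324 to 1.22 and at 0.338 to 5.75 CPM, which overlap. The median of Anxa8 was 0.0294 CPM in air and 0.109 CPM in silica at 1 day, and 1.59 and 2.29 CPM at 6 months. The times were deposited in separate tables, and time and table cannot be told apart, so no test was made.

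Correlations with Prf1 and Nkg7 were computed on log2 CPM across libraries, within lung at 1 day, blood at 1 day and blood at 6 months. Of 52 correlations 23 passed an adjusted p of 0.05 (permutation test of Pearson's r, two-sided, Benjamini-Hochberg over all 52). No share of all genes is given beside this count or beside the counts per set of libraries below. None of these counts is therefore read as a trait of the 10 genes. No value was pooled over the lung times, since the late air lungs stand apart. Without the 2 libraries farthest from the median of Prf1 or Nkg7, 0 of them passed. Fewer libraries were then left (8 in lung, 10 in blood), and r kept much of its size for some pairs and lost it for others.

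**Figure D5:**
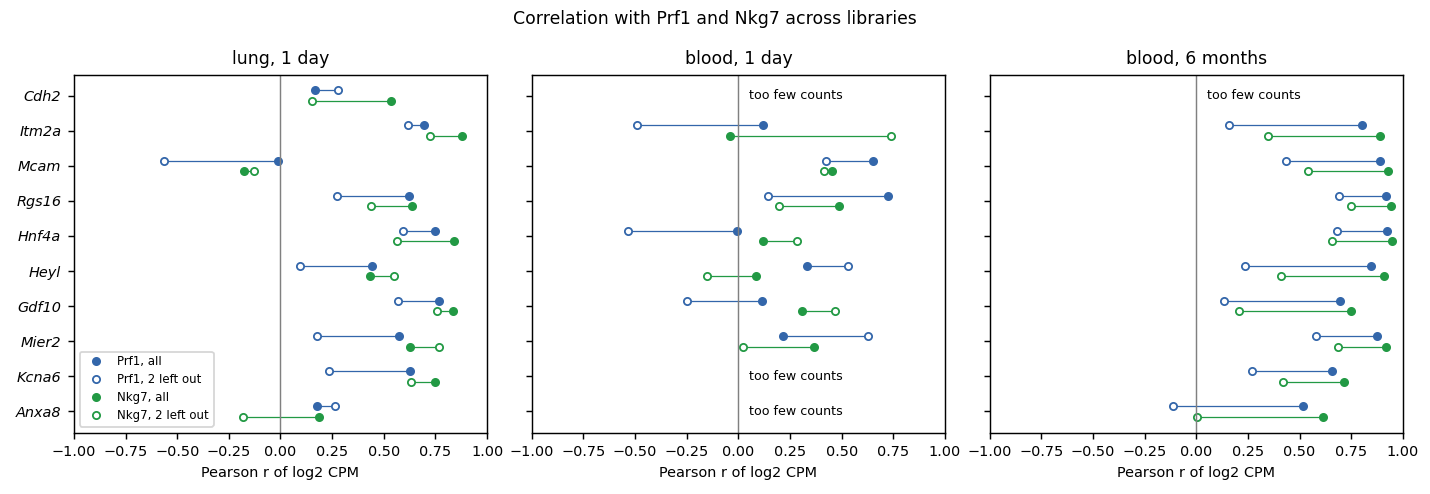
Pearson r of log2 CPM (horizontal axis) of each of the 10 genes with Prf1 (blue) and Nkg7 (green), across 10 lung libraries of 1 day, 12 blood libraries of 1 day and 12 of 6 months. Filled points use all libraries and open points leave out the 2 farthest from the median of Prf1 or Nkg7. In blood at 6 months r with Nkg7 runs from 0.62 to 0.95 with all libraries and from 0.00 to 0.75 without the 2.

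In lung at 1 day, 3 of 10 genes passed with Prf1 and 4 of 10 with Nkg7. Itm2a had r = 0.88 and rho = 0.93 with Nkg7 (permutation adjusted p = 0.00676 and 0.00806, n = 10), and r = 0.72 without the 2 farthest libraries, air 04-08 and silica 10. Hnf4a had r = 0.84 and rho = 0.78 (permutation adjusted p = 0.00949 and 0.0581), and 0.56 without them. Gdf10 had r = 0.83 and rho = 0.75 (permutation adjusted p = 0.0136 and 0.0738), and 0.76 without them. Itm2a was thus the gene nearest to the granule genes by rank in these lungs. Mcam had r = -0.18 and Anxa8 r = 0.19, neither past the threshold.

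In blood at 1 day, 1 of 7 genes passed with Prf1, Rgs16 (r = 0.72, rho = 0.50, permutation adjusted p = 0.0296 and 0.2202), and 0 of 7 with Nkg7. In blood at 6 months 7 of 9 passed with Prf1 and 8 of 9 with Nkg7 by Pearson's r. By Spearman's rho 2 of 9 and 4 of 9 passed. Library 25, which is high for all, was among the 2 farthest. It was also the highest blood for 28.0% of all genes with a mean of at least 1 CPM. Without library 25 alone, 3 of 9 passed with Prf1 and 5 of 9 with Nkg7 by Pearson's r. With Nkg7 these were Mcam (r = 0.85), Hnf4a (0.81), Rgs16 (0.80), Heyl (0.78) and Mier2 (0.71) over 11 libraries. By rank 0 of 9 passed there with Prf1 and 1 of 9 with Nkg7, Rgs16 (rho = 0.86). Heyl had a rho of 0.55 with Nkg7. Cdh2 had too few counts in blood to be used. Anxa8 was the least related of the 9 in blood at 6 months, with r = 0.52 to Prf1 and 0.62 to Nkg7, neither past the threshold.

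Lists of related genes, 121 in all, were set beside the 10 genes. In lung at 1 day 100 of them were tested, 10 rose and 6 fell, beside 11.7% of all genes called in either direction. Of 22 tested genes of the BMP and GDF group, to which Gdf10 belongs, 4 rose and 1 fell. The receptor gene Tgfbr1 rose by 0.40 ± 0.04 (edgeR adjusted p = 5.14e-05), while the ligand genes Bmp6 (-0.43 ± 0.09) and Bmp4 (0.20 ± 0.05) went opposite ways. Of 18 Notch genes 1 rose, Notch2 (0.23 ± 0.05), and 2 fell, the ligand gene Dll4 (-0.28 ± 0.06) and the fringe gene Mfng (-0.26 ± 0.06). Of 9 annexin genes, S100a10 included, 3 rose and 1 fell, led by Anxa2 (0.26 ± 0.05) and Anxa3 (-0.33 ± 0.08), beside the fall of Anxa8.

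Of 8 genes of the family of Rgs16, 1 rose, Rgs2 (0.61 ± 0.11, edgeR adjusted p = 0.00357). Of 9 genes listed as partners of Mcam or related adhesion genes, Vcam1 rose (0.22 ± 0.05) and S1pr1 fell (-0.50 ± 0.08, edgeR adjusted p = 0.00146). Of 10 genes of histone deacetylase complexes 1 fell, Mier1 (-0.12 ± 0.04), and 0 of 10 cadherin and catenin genes, 0 of 7 genes of the HNF4A network, 0 of 5 potassium channel genes and 0 of 2 ITM2 genes passed. In blood 0 of 62 list genes passed at 1 day and 0 of 60 at 6 months, as 0% of all genes did by edgeR.

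In lung at 6 months, where the air libraries are those of the choice, 16 of the 100 list genes were called higher and 14 lower in silica, beside 9.54% and 10.1% of all genes. The count over all genes fell from 3190 to 54 without air library 19-24. Kcnab2, which encodes a beta subunit that binds channels such as that of Kcna6, was at -2.54 ± 0.27, and Rgs3 at -1.31 ± 0.19. The cadherin genes went both ways, Cdh13 at -2.64 ± 0.41 and Cdh3 at 0.98 ± 0.17.

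Genes with a profile most like the mean of the 10 were sought among all genes with a mean of at least 1 CPM, by the root mean square difference of centred log2 CPM. Across the 17 lung libraries the nearest of 14977 genes were Plcg2 (0.143), Sytl3 (0.176), Kcnab2 (0.177), Ada (0.187), Chsy1 (0.199) and Rhof (0.199). Plcg2, which encodes a phospholipase of immune receptor signalling, was at 365 and 333 CPM in the late air lungs against 35.5 to 117 CPM in the others. Of these 6, 5 were also highest in blood library 25, as 28.0% of all genes with a mean of at least 1 CPM were, Plcg2 at 205 CPM against at most 74.7 CPM, and Rhof was not (60.5 against at most 70.5 CPM).

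Across the 24 bloods the nearest of 11268 genes were Scin (0.459), Itga1 (0.529), Cdhr1 (0.544), Lama3 (0.581), Adcy1 (0.588) and Cd276 (0.593). Scin, which encodes an actin-severing protein, was at 204 CPM in library 25 against at most 56.1 CPM, and at 495 and 359 CPM in the late air lungs against at most 105 CPM. Lama3, a laminin gene, was at 32.2 CPM in library 25 against at most 9.49 CPM, and in the late air lungs, at 155 and 161 CPM, it lay within the range of the others (85.6 to 182 CPM), as Anxa8 did.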

How the data were processed

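RNA was sequenced from 46 lung and blood samples in stranded, poly(A)-selected libraries, with globin RNA depleted from blood RNA, per the labels' protocols. The values the authors deposited are estimated counts per gene from Salmon, in 4 tables of 30045 genes, 1 for each tissue and time. Per the submitters' processing notes the tools were Salmon 1.10.1 and STAR 2.6.1d, beside Trim Galore 0.6.7, cutadapt 3.4 and bcl2fastq 2.19, and the genome build was Rnor_6.0. The sources used here give no order or settings. Counts not whole (tolerance 1e-06) occurred for Mier2 in 13.0% and Hnf4a in 2.17% of samples and for 0% of samples in the other 8 genes; 0 columns were unmatched.

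Counts were rounded and tested with edgeR 4.0.16 (filterByExpr with 10 counts a library and 15 in all, TMM, robust quasi-likelihood test, Benjamini-Hochberg over all genes tested, threshold 0.05). DESeq2 1.42.0 and other settings were alternatives, and the edgeR steps were tested on simulated data. Log2 CPM used a prior count of 2, and correlations used 100000 permutations, the smallest p they can give being 1e-05. Pairs of libraries were averaged below 15% of genes (mean of at least 20 counts) at a chi-square p under 0.05; the planned limit was 10%, which 1 pair meets, and 15% was set after seeing the gap in the values. Floors cover counting error only, while the SE values of edgeR also include the spread between libraries.

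The members, lists and tests were chosen with earlier results of these data known. The genes named are the 10 members, Prf1 and Nkg7, the 6 nearest profiles in each tissue, up to 3 list genes with the smallest adjusted p in each comparison and up to 4 markers of each list in list order; other genes were named after their values were seen. Of 21 granular lymphocyte markers 20 were found, without Fasl. The result of 1 list gene is not reported here.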

Additional observations from a re-analysis of the deposited data

Results flagged for a closer look

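Of 84 groups of 4 to 6 libraries, over the 10 genes, Prf1 and Nkg7, 33 held a library far from the rest. Far means that the gap to the nearest library over the range of the group was past Dixon's 95% value. For normally spread values, about 1 in 20 groups passes that value by chance. Whether the CPM values are spread in this way was not tested. The 84 groups are also not independent, because all 12 genes were read in the same libraries. The count of 33 is therefore not compared with that rate and only lists values for a closer look. Of the 33, 12 were air library 25 in blood at 6 months, where every one of the 12 genes had a lone high value: Cdh2 59.7, Itm2a 132, Mcam 117, Rgs16 58.0, Hnf4a 49.8, Heyl 37.7, Gdf10 53.2, Mier2 53.7, Kcna6 36.7, Anxa8 51.6, Prf1 612 and Nkg7 298 CPM. In lung at 1 day, air library 04-08 was alone for Itm2a (52.6 CPM), Hnf4a (21.1 CPM), Gdf10 (6.71 CPM) and Nkg7 (101 CPM), and silica library 10 for Mcam (293 CPM). In lung at 6 months, silica library 30-31 was alone for Rgs16 (22.1 CPM), Gdf10 (30.1 CPM), Kcna6 (29.6 CPM), Prf1 (315 CPM) and Nkg7 (121 CPM).

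In blood at 1 day, air library 04 was alone for Hnf4a (7.16 CPM), Gdf10 (3.65 CPM) and Kcna6 (2.39 CPM). Lung library 04-08 was the highest air lung of 1 day for these 3 genes and also for Cdh2, Itm2a, Rgs16 and Anxa8, for which blood library 04 did not stand alone. Silica library 16 was alone for Mcam (10.9 CPM) and Gdf10 (2.80 CPM), silica library 11 for Mier2 (8.66 CPM), silica library 15 for Cdh2 (0.280 CPM) and Anxa8 (0.420 CPM), silica library 14 for Kcna6 (0.562 CPM) and air library 09 for Anxa8 (0.378 CPM). The values under 1 CPM rest on few counts. In blood at 6 months, silica library 33 was alone at the low end for Mcam (1.35 CPM).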

How the results depend on the processing

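The late air lungs number 2 libraries and the high blood is 1 library, which limits every statement on them. Counts of called genes, the background of the members, moved with the settings. In lung at 1 day 1833 genes were called, 596 with all lung groups in 1 fit (where 0 rather than 1 of the 10 genes passed), and 1181 to 2239 with each library left out. In lung at 6 months 3190 were called, 6396 with every library separate or with only pairs under 10% averaged, 6472 with all groups in 1 fit, and 54 to 4162 with each library left out, the lowest without air library 19-24. In blood at 6 months the count was 0, 7 by DESeq2 and 0 to 2 with each library left out, and for the difference between times it was 0 and 1 by DESeq2, which was also the 1 member called. Pairs past the correlation threshold went from 7 in lung at 1 day, 1 in blood at 1 day and 15 in blood at 6 months to 0 in each without the 2 farthest libraries, and to 8 in blood at 6 months without library 25, a setting chosen after seeing the data. The cause was not tested.

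Fold changes that changed sign with 1 library left out did not pass in any of these fits. Over these fits in lung at 1 day, Cdh2 ran from -0.19 to 0.070, Hnf4a from -0.71 to 1.32, Itm2a from -0.12 to 0.10 and Mcam from -0.057 to 0.050 (0.016 with every library separate). In blood at 1 day Gdf10 ran from -0.72 to 0.78, Hnf4a from -0.90 to 0.42, Itm2a from -0.43 to 0.0053, Mcam from -0.46 to 0.11, Mier2 from -0.30 to 0.064 and Rgs16 from -0.13 to 0.36. In blood at 6 months Gdf10 ran from -1.96 to 0.024. For the difference between times, without library 25, Gdf10 was at 0.16, Hnf4a at 0.17, Itm2a at 0.073, Kcna6 at 1.17 and Mcam at 0.0043.

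Correlations that changed sign without the 2 farthest libraries were Anxa8 with Nkg7 in lung at 1 day (-0.18), Itm2a with Prf1 (-0.49) and Nkg7 (0.74), Gdf10 with Prf1 (-0.25) and Heyl with Nkg7 (-0.15) in blood at 1 day, and Anxa8 with Prf1 in blood at 6 months (-0.11). With CPM on total counts these were Mcam with Prf1 in lung (0.087), and Hnf4a with Prf1 (0.17) and Itm2a with Nkg7 (0.19) in blood at 1 day. No paired analysis was possible because the air and silica groups compared share no replicate number in the labels.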

Other observations

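Genes that lie beside the 10 on the RefSeq map (GRCr8, 3 protein-coding genes on each side) were read in the same libraries, chosen after the members' values were seen. Of 53 such neighbours found in the data, 10 (18.9%) were higher in both late air lungs than in every other lung. The share was 22.5% over all genes with a mean of at least 1 CPM, a limit not set for the neighbours. Several neighbours were near 0, so these shares cover unlike sets. Of the neighbours 1 was over 4-fold the next blood in library 25. That gene was Dsc2, which encodes a desmosomal cadherin and lies near Cdh2. It was at 79.9 and 64.1 CPM in the late air lungs against at most 36.7 CPM, and at 41.5 CPM in blood library 25 against at most 7.58 CPM. Gdf10 and Anxa8 lie on the same chromosome with 6 protein-coding genes between them. Of these 3 are in the tables, and they were near 0: Gdf2 was at 0.893 and 0.239 CPM in the late air lungs and 0.0366 CPM in blood library 25, and Rbp3 and Zfp488 were at 0.0595 CPM or less in these libraries.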
